A study of Mus musculus with 6 samples.

Results

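The 8 germline genes described here are known for promoters that are silenced by DNA methylation in somatic cells, and were followed in the fetal ovary: Dazl, Tex19.1, Brdt, Slc25a31, Tex101, Tex14, Tex15 and Taf7l. They were read through every probe set whose platform annotation names 1 of them alone, which gave 8 of 18193 genes so named and 11 of the 45037 probe sets that are not controls. The arrays compared ovaries of mouse embryos at E15.5 (embryonic day), 3 labelled as Dmrt1 knockout and 3 as wild type (WT). The series describes the knockout as conditional, and the labels name no Cre line, floxed allele, strain or litter and do not say whether ovaries were pooled. Dmrt1 encodes a DM domain transcription factor of germ cells and of the testis, and the study asked what its removal does to the ovary's transcripts. The labels do not say that replicates are separate animals, so a p-value here covers the variation among 3 samples a group and part of that may be technical.

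In early embryonic germ cells most DNA methylation is erased, and a group of germline genes with CpG-rich promoters is switched on as methylation and polycomb marks leave those promoters. In somatic cells the same promoters are kept shut by DNA methyltransferases and by the repressive complex PRC1.6, which is brought to DNA by E2F6 and by MGA with MAX. In the ovary of this age the germ cells are in meiotic prophase, which several of these genes serve.

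The 250 bases before the start site were found in RefSeq's promoter table (GRCm38.p6) for 7 of the 8 genes. The 4 windows below lie wholly outside the annotated gene, and they are shown because 3 belong to the genes with the smallest adjusted p and Tex101 to one with a larger p. Each runs 5′ to 3′ towards the start site, with every CpG in capitals. The Tex19.1 window is chr11:121145893-121146142 on the plus strand, that of Dazl chr17:50293621-50293870 on the minus strand, that of Slc25a31 chr3:40708621-40708870 on the plus strand and that of Tex101 chr7:24672051-24672300 on the minus strand.
Tex19.1: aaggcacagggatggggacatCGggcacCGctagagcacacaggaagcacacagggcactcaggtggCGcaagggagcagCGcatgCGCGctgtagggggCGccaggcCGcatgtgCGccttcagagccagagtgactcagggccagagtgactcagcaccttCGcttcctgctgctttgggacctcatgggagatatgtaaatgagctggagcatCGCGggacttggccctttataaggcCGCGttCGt
Dazl: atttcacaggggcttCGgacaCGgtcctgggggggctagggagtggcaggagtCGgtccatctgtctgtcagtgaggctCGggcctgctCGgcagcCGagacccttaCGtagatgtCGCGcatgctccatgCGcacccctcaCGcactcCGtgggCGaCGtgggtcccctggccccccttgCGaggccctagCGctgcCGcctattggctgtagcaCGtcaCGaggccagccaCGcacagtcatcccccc
Slc25a31: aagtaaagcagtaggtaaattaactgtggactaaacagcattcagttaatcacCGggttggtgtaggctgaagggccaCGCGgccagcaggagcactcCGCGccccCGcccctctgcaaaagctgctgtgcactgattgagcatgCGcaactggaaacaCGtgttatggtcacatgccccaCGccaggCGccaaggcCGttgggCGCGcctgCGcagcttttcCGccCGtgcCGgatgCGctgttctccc
Tex101: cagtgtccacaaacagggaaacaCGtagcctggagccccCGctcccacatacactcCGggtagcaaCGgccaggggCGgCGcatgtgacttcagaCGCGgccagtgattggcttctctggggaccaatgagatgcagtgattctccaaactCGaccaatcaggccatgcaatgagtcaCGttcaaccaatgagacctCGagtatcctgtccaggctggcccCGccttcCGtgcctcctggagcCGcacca

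The 7 windows held more CpG than the median window. They held 14 to 20 CpG, against a median of 6 over 32851 promoter windows of that length. The ratio of observed to expected CpG was 0.64 for Tex19.1, 0.71 for Dazl, 0.81 for Slc25a31 and 0.64 for Tex101, and the median over all windows was 0.37, with an upper quartile of 0.72. Tex19.1 and Tex101 thus lay at the 69.1 and 68.8 percentiles of all windows, Dazl at 74.1 and Slc25a31 at 82.0. Brdt (0.67) and Tex14 (0.73) lay in the same range. Taf7l, on the X chromosome, had the highest ratio, 1.13, at the lowest GC content, 44.8%.

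The E2F site, the E-box and the DM domain core were searched on both strands, with no overlap among their matches in these windows. The E2F letters GCGGGA occurred in 2 of the 7 windows, Tex19.1 (33 to 28 bases before the start) and Tex14 (111 to 106 bases before it), and in 16.9% of all windows. The E-box CACGTG, the site of MAX and its partners, occurred in 3 of the 7, Brdt, Slc25a31 (93 to 88 bases before the start) and Taf7l, and in 6.02% of all windows. The DM domain core ACATTGT was in 0 of the 7 and in 2.56% of all windows. These are matches of letters, and no binding or methylation was measured here.

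**Figure D1:**
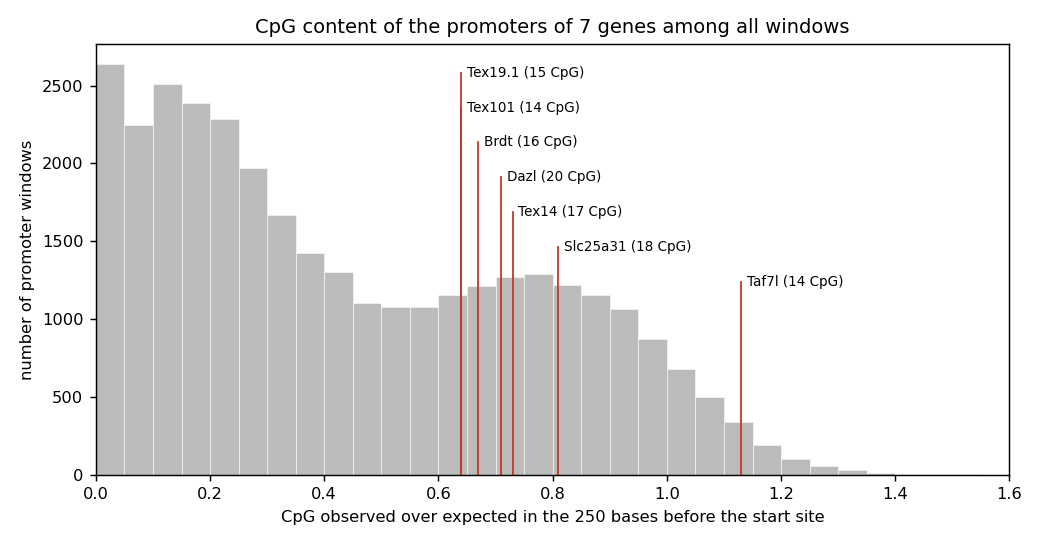
Histogram of the ratio of observed to expected CpG (x axis) in the 250 bases before the start of 32851 mouse promoter windows (y axis, number of windows), with a red line for each of 7 genes and its CpG count. All 7 lie between 0.64 and 1.13, above the median of 0.37 over all windows.

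The arrays were checked first. Dmrt1 read 5.97 to 8.55 intensity units on the knockout arrays and 8.47 to 13.0 on the WT arrays through a single dim probe set, which was under the test level and may lie outside the deleted part, so it does not check the labels. Xist, the RNA that coats the inactive X chromosome of female cells, averaged log2 1.81 over its probe sets on knockout replicate 1, while the other knockout arrays had 9.85 and 9.75 and the WT arrays 10.68 to 10.91, so values without replicate 1 are given. Without that array Xist was still lower in knockout, by 1.31 through its brightest probe set, and passed the threshold. Genes of the Y chromosome (Uty, Kdm5d, Eif2s3y) read under 4 units on all 6 arrays. Ovarian identity was visible in Foxl2, the granulosa cell factor (129 to 301 units), and of 5 Sertoli genes Amh and Cyp26b1 lay under log2 4 on all 6 arrays, Dhh on 5 and Sox9 on 2 (12.1 to 20.5 units), while Fgf9 read 58.9 to 100 units and lay above it on all 6. The log2 of the summed intensity of 8 germ cell markers ran from 13.48 to 13.91 in knockout and from 13.43 to 13.67 in WT. Its highest value was on knockout replicate 1. Bright markers such as Smc1b (3415 to 5619 units) weigh most in this sum. Of all tested genes 17.4% had an unadjusted p under 0.05 in limma. Of 6 tested germ cell markers, 0 passed and 2 had such a p. One of them, the meiotic cohesin Rec8, differed by 1.64 ± 0.44 (adjusted p in limma 0.0538) and passed in 7 of 16 alternatives. These were array weights (0.0179), median centring (0.0317), no filter (0.0449), no probe sets ending _x_at or _s_at (0.0442), the fits without knockout replicate 2 (0.0358) or WT replicate 1 (0.0311), and the replicate block (6.31e-04). That block uses replicate numbers that do not pair the samples, so its value carries little weight. The Rec8 difference was 1.14 (0.116) without knockout replicate 1. The summed level of 8 pregranulosa markers was higher in knockout without overlap, at 13.47 to 13.64 against 13.34 to 13.40 in WT. So was that of 2 mesonephros markers, at 7.81 to 7.82 against 7.45 to 7.76. Of the pregranulosa markers 6 of 8 had a positive difference and 0 passed, while alternatives gave up to 2 (median centring). Foxl2 was one of the 2 below 0, at -0.26 with overlapping groups. Bright Amhr2 (1457021_x_at, 3856 to 5322 units) weighs much in the pregranulosa sum and differed by 0.25 without overlap. Its other probe sets differed by -0.06 (1438967_x_at, with overlap) and 0.44 (1427989_at, without overlap). Of the 2 mesonephros markers 0 passed. Summed levels of 5 macrophage markers (10.85 to 11.62 in knockout, 11.59 to 11.89 in WT) and 7 stroma markers (14.95 to 15.03 against 15.12 to 15.26) were lower on most or all knockout arrays, and that of 3 erythroid markers was 8.30 to 8.90 against 8.89 to 10.32. Of the tested markers 2 of 5 macrophage, 2 of 3 endothelial and 1 of 2 erythroid ones fell (Slc4a1, by 1.44, limma adjusted p = 0.0275), and 0 of 7 stroma ones. These counts use each gene's brightest probe set. Among dimmer stroma probe sets, Dcn 1441506_at (-1.76, limma adjusted p = 0.00282), Nr2f2 1444229_at (-0.94, 0.0318) and Col1a1 1423669_at (-0.54, 0.0446) fell. The other tested ones did not pass, with Pdgfra 1438946_at (0.36) and Nr2f2 1416159_at (0.02) above 0. The stroma count was 1 when arrays were weighted, when either knockout replicate 2 or 3 was dropped, or when each gene's probe sets were averaged. The macrophage count was 0 with averaged probe sets, the replicate block or median centring, 0 without any one WT array or knockout replicate 1, and 1 in 5 other alternatives. The endothelial count was 0 without WT replicate 3 and 1 in 10 other alternatives, and the erythroid count 0 under eBayes without the trend and without knockout replicate 1 or 2 or WT replicate 1 or 3. The part of these differences in the results below was not tested, and in whole ovaries fewer cells of a type and less RNA per cell cannot be told apart.

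Of the 8 genes 1 rose, Tex19.1, 0 fell and 7 did not pass (limma, Benjamini-Hochberg adjusted p under 0.05 over 22040 tested probe sets). A probe set was tested when its intensity reached 16 units, log2 4, on at least 3 of the 6 arrays, and each gene was counted through its brightest tested probe set. Values are listed below in intensity units for replicates 1, 2 and 3 of each group, in that order. All 8 genes were tested, through 9 of the 11 probe sets, and those 9 reached the level on all 6 arrays. Over all 11897 tested genes 1.28% rose and 2.27% fell, 3.55% in all, and over all tested probe sets 6.60% passed, so 1 of 8 is read against those shares. The median difference of the 8 genes was 0.25 on the log2 scale, beside 0.02 over all tested genes, with 5 differences above 0 and 3 below. Without knockout replicate 1 the count was again 1, Tex19.1, and the median 0.17, while without WT replicate 3 the count was 0 and the median 0.10. For 2 of the 8, Tex19.1 and Slc25a31, every knockout array lay above every WT array, and for 0 every knockout array lay below, while over all tested genes 12.3% and 11.4% had such groups.

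**Figure D2:**
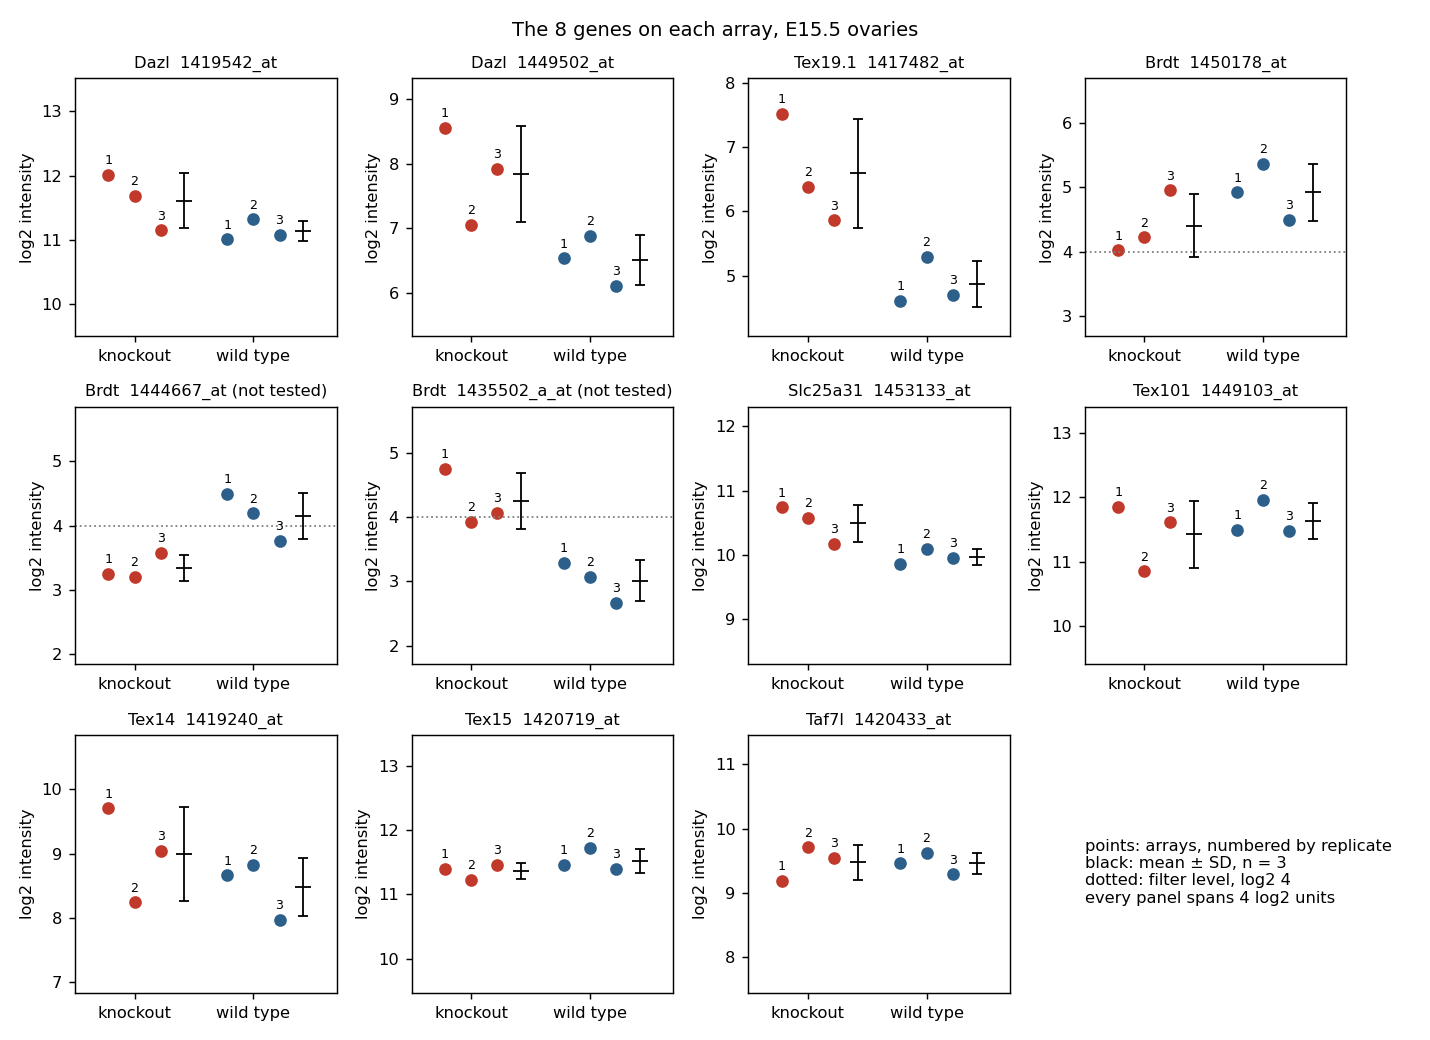
Log2 intensity (y axis) of the 11 probe sets of the 8 genes on each array, 3 knockout (red) and 3 wild type (blue), numbered by replicate, with the mean and SD (n = 3) in black and the filter level as a dotted line. The knockout arrays lie above the WT arrays without overlap for Tex19.1, Slc25a31, the dimmer Dazl probe set and 1 dim Brdt probe set, and below them for the other dim Brdt probe set.

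Tex19.1, a mammalian germline protein that restrains retrotransposons and binds the ubiquitin ligase UBR2, read 183, 83.4 and 58.1 units in knockout and 24.5, 39.0 and 26.1 in WT. The groups did not overlap, and the knockout arrays differed more among themselves than the WT arrays did. Tex19.1 rose 3.29-fold (95% interval 1.85 to 5.84), from a mean log2 level of 4.87 ± 0.36 (SD, n = 3) in WT to 6.59 ± 0.85 in knockout, a log2 difference of 1.72 ± 0.37 (SE, limma adjusted p = 0.0216). Without knockout replicate 1, its brightest array, Tex19.1 still rose, by 1.25 (limma adjusted p = 0.0271). On the WT arrays Tex19.1 was dim, and with 16 units added before log2 it rose by 1.32 (limma adjusted p = 0.0306). Its call ended without WT replicate 1 (difference 1.59, limma adjusted p = 0.0951) or WT replicate 3 (1.64, 0.0694), and over all 15 alternatives the adjusted p ran from 0.00752 to 0.0951.

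Tex19.2, the paralog of Tex19.1 and its direct neighbour on chromosome 11 with 0 annotated genes between them, reached the filter level on 2 of 6 arrays and was not tested. It read 41.3, 14.9 and 18.7 units in knockout and 10.9, 11.6 and 8.67 in WT. The groups did not overlap, with the highest value again on knockout replicate 1. Whether either probe set also detects the other paralog is not known here.

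Dazl, an RNA-binding protein that controls translation of germ cell messages and licenses germ cells for gametogenesis, has 2 probe sets, and they gave different answers. Its brighter probe set (1419542_at) read 4118, 3278 and 2273 units in knockout and 2062, 2555 and 2167 in WT. Knockout replicate 3 lay under WT replicate 2, so the groups overlapped. The log2 difference was 0.48 ± 0.19 (SE, n = 3; 95% interval 0.06 to 0.89), which did not pass (limma adjusted p = 0.183). It passed without knockout replicate 3 (0.71, limma adjusted p = 0.0169) and was 0.28 without knockout replicate 1, with an adjusted p of 0.0169 to 0.421 over 16 alternatives.

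The dimmer Dazl probe set (1449502_at) read 374, 133 and 243 units in knockout and 92.7, 118 and 68.7 in WT. Here the groups did not overlap. The probe set rose 2.53-fold (95% interval 1.49 to 4.28), a log2 difference of 1.34 ± 0.34 (SE, n = 3; adjusted p in limma 0.0456), where 1.46% of all tested probe sets rose. This call ended without any one array other than knockout replicate 2, with limma adjusted p between 0.0576 and 0.150. It also ended under eBayes without the trend (0.0775) and the stricter filter (0.0581), and held in 9 of 16 alternatives. The difference was 0.98 without knockout replicate 1. The 2 probe sets gave the same direction and sizes of 0.48 and 1.34, and the difference between them was not tested.

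Slc25a31, the germline ADP/ATP carrier of the mitochondrial inner membrane also called ANT4, read 1710, 1520 and 1149 units in knockout and 928, 1100 and 991 in WT. The groups did not overlap, with knockout replicate 3 close above WT replicate 2. The log2 difference was 0.52 ± 0.15 (SE, n = 3; 95% interval 0.18 to 0.86), which did not pass (limma adjusted p = 0.0800). It passed with array weights (0.0339), with median centring (0.0299) and without knockout replicate 3 (0.0140), and was 0.40 without knockout replicate 1, with an adjusted p of 0.0140 to 0.240 over 16 alternatives.

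Brdt, a BET bromodomain protein of male germ cells that reads acetylated histones, was dim, and its 3 probe sets did not run the same way. The tested probe set (1450178_at) read 16.2, 18.6 and 30.8 units in knockout and 30.3, 41.1 and 22.4 in WT, and the groups overlapped (log2 difference -0.53 ± 0.29, SE, n = 3; adjusted p in limma 0.342; difference -0.34 without knockout replicate 1). Of the others, 1435502_a_at read 26.8, 15.2 and 16.7 units in knockout and 9.77, 8.40 and 6.35 in WT. The third, 1444667_at, read 9.54, 9.21 and 11.9 units in knockout and 22.5, 18.2 and 13.7 in WT. So one was higher on every knockout array and the other lower on every knockout array, by log2 differences of 1.24 and -0.81. Each lay under the filter level on 4 of 6 arrays and was not tested. With no filter both passed, in opposite directions (limma adjusted p = 0.0111 and 0.0423), so no direction is given for Brdt.

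Tex14, a component of the intercellular bridges that join germ cells, read 831, 302 and 525 units in knockout and 403, 452 and 250 in WT. Knockout replicate 1 was the highest array and the groups overlapped. The log2 difference of 0.51 was close to that of Slc25a31, with a wider error (SE 0.34, n = 3; 95% interval -0.24 to 1.26), and did not pass (limma adjusted p = 0.440). Without knockout replicate 1 it was 0.16.

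Tex15, which serves meiotic recombination and the silencing of retrotransposons in male germ cells, read 2684, 2384 and 2817 units in knockout and 2816, 3380 and 2675 in WT. The groups overlapped, and this was the narrowest interval of the 8 genes, from -0.42 to 0.09 around a log2 difference of -0.17 ± 0.11 (SE, n = 3; adjusted p in limma 0.458), and it was -0.18 without knockout replicate 1. Tex101, a glycoprotein of the germ cell surface, read 3680, 1843 and 3115 units in knockout and 2881, 3992 and 2854 in WT. Knockout replicate 2 was the lowest array. The log2 difference was -0.21 ± 0.23 (SE, n = 3; 95% interval -0.72 to 0.30, limma adjusted p = 0.658), and it was 0.08 without knockout replicate 2 and -0.42 without knockout replicate 1.

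Taf7l, a germline paralog of the TFIID subunit TAF7 on the X chromosome, read 584, 840 and 748 units in knockout and 702, 788 and 627 in WT. Knockout replicate 1, the array with Xist near the floor, was the lowest of all 6. The log2 difference was 0.03 ± 0.16 (SE, n = 3; 95% interval -0.33 to 0.39, limma adjusted p = 0.950), and 0.17 without that array (0.603).

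**Figure D3:**
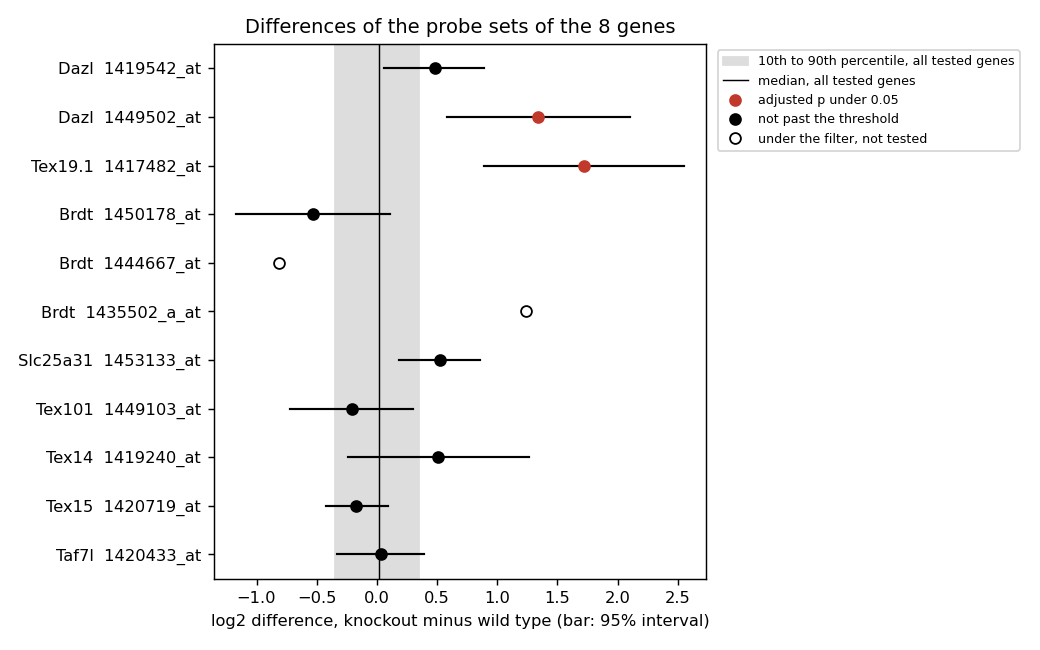
Log2 difference, knockout minus wild type (x axis), of the 11 probe sets, with 95% intervals for the 9 tested ones; red marks an adjusted p under 0.05, hollow points were not tested, and the grey band holds the 10th to 90th percentile of all tested genes (-0.35 to 0.35). Tex19.1 and the dimmer Dazl probe set are the 2 past the threshold, and the Brdt points lie on both sides of 0.

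The genes shared a pattern across arrays within the groups. Within the WT arrays, replicate 2 was the highest for 8 of 8 genes, where it was the highest for 27.4% of all tested genes. Within the knockout arrays, replicate 1 was the highest for 5 of 8 (27.6% of all tested genes). Brdt and Tex15 were highest on knockout replicate 3 and Taf7l on replicate 2. The summed germ cell markers were highest on the same arrays, WT replicate 2 (13.67) and knockout replicate 1 (13.91), and their part in this order was not tested.

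**Figure D4:**
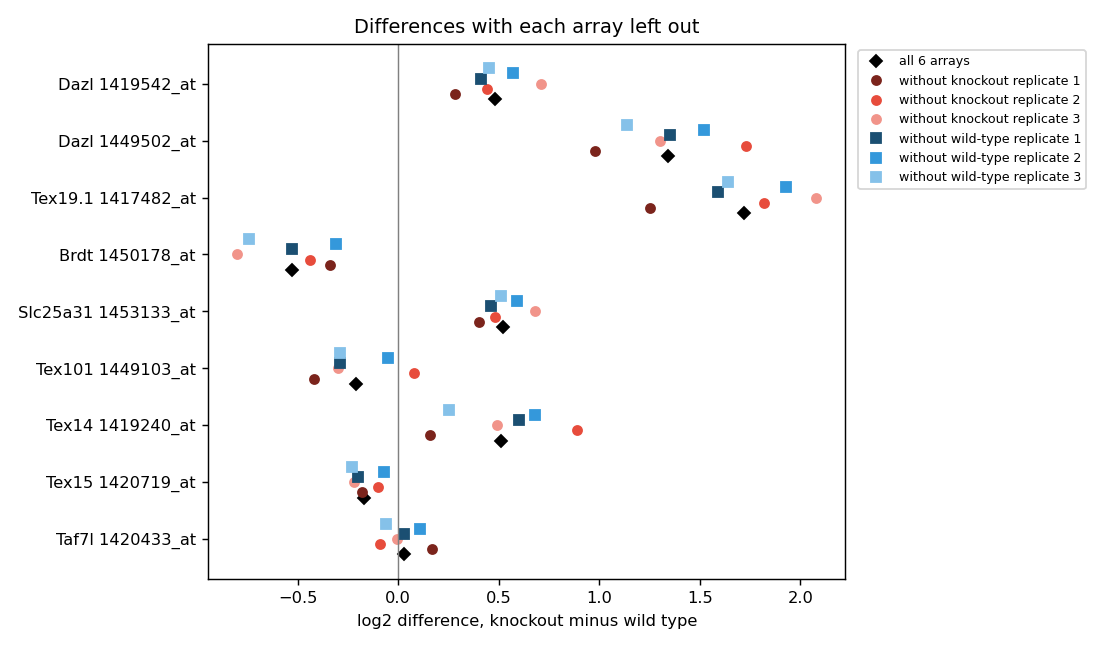
Log2 difference, knockout minus wild type (x axis), of the 9 tested probe sets with all 6 arrays (diamonds) and with each array left out in turn (circles for knockout arrays, squares for wild type). Tex19.1 runs from 1.25 to 2.08, and Dazl, Slc25a31 and Tex14 are smallest without knockout replicate 1, as is the dimmer Dazl probe set.

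Among all tested genes, those whose log2 profile over the 6 arrays, centred on its own mean, lay nearest to that of Dazl were Rbm46, an RNA-binding protein of germ cells, at a Euclidean distance of 0.19 log2 units, Aph1b (0.20), Brsk2, Plaa and Slc25a31 (each 0.22). Slc25a31 was thus both one of the 8 and among the 5 nearest to Dazl. For Tex19.1 the nearest were Dppa5a, a gene of pluripotent cells and germ cells, at 0.42, then BC048679 (0.75), Cox7a1 and Sct (both 0.84) and Pou5f1, which encodes the pluripotency factor OCT4 (0.92). Dppa5a rose by 1.90 ± 0.35 log2 units (adjusted p in limma 0.00972, and 0.0540 without WT replicate 1, where the difference was 1.71), and Pou5f1 differed by 1.53 ± 0.52 (0.122). BC048679, Sct and Pou5f1 were dim, at mean log2 levels of 4.93, 5.39 and 5.35. All these profiles come from the same 6 arrays. Nearness to Tex19.1 selects genes with a difference like its own, so these differences are no separate result.

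Of 11 other tested germline genes known for promoters methylated in somatic cells, 0 passed and 1 had an unadjusted p under 0.05 in limma, while 17.4% of all tested genes did, and 9 had a positive difference (median 0.21), where 53.4% of all tested genes had one. The median was 0.12 without knockout replicate 1, and 7 of 11 were positive with array weights or without WT replicate 3. In the lists of PRC1.6 and H3K9 genes and of partners, given below, 10 of 13 and 8 of 11 were positive. Ddx4, Mael and Sycp3 of the germline list are also among the germ cell markers above. Ddx4, the germ cell helicase Vasa, differed by 0.43 ± 0.16 log2 units (SE, n = 3; adjusted p in limma 0.161), and by 0.25 without knockout replicate 1. Without knockout replicate 3 it passed (0.59, limma adjusted p = 0.0460, and up to 0.374 in other alternatives). Asz1, a germ granule protein, differed by 0.52 ± 0.24 (0.251) and Tex12, of the synaptonemal complex, by 0.36 ± 0.19 (0.326).

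The list of DNA methyltransferases and TET enzymes, which set and remove methylation, also held Uhrf1, which is neither (-0.03, limma adjusted p = 0.956). That list had 0 of 6 tested genes past the threshold through their brightest probe sets and 0 with an unadjusted p under 0.05 in limma. All 6 differences were below 0 (median -0.12). With median centring 4 of 6 were above 0, with averaged probe sets 3, without knockout replicate 3 they were 2, and 1 was above 0 with array weights, without WT replicate 1 or 3, and without probe sets ending _x_at or _s_at. Tet2, a dioxygenase that oxidises methylcytosine, differed by -0.79 ± 0.38 (SE, n = 3; adjusted p in limma 0.275), with overlapping groups. The other tested Tet2 probe set (1438781_at) read 36.7, 35.6 and 20.7 units in knockout and 46.3, 87.1 and 65.2 in WT, without overlap, and differed by -1.09 ± 0.29 (adjusted p in limma 0.0501). Tet1 differed by -0.43 ± 0.27 (0.417) and the de novo methyltransferase Dnmt3a by -0.12 ± 0.08 (0.463). Another Dnmt3a probe set (1460324_at) fell by 0.82 ± 0.20 (limma adjusted p = 0.0420), at 987, 809 and 549 units in knockout against 1137, 1517 and 1397 in WT, where 5.15% of all tested probe sets fell. This call ended with median centring (-0.68, 0.0693), eBayes without the trend (0.0797), the stricter filter (0.0560), the replicate block (0.0592) and without any one array other than knockout replicate 1, where the adjusted p ran up to 0.152. The remaining tested Dnmt3a probe sets were also below 0 and did not pass. They were 1423066_at (-0.54, limma adjusted p = 0.0501) and 1423063_at (-0.33, 0.130), both without overlap, and 1423065_at (-0.30, 0.321), with overlap.

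Of 13 tested genes of PRC1.6 and of histone H3K9 methylation, which repress this class of genes, 0 passed and 1 had an unadjusted p under 0.05 in limma (median 0.06). That gene was Mga, the scaffold of PRC1.6 that binds E-boxes with MAX, at -0.40 ± 0.13 log2 units (SE, n = 3; adjusted p in limma 0.122). It read 1938, 2190 and 1513 units in knockout and 2334, 2490 and 2513 in WT, without overlap, and passed without knockout replicate 2 (-0.51, limma adjusted p = 0.0358, and up to 0.302 in other alternatives). Ring1, a ubiquitin ligase of PRC1, differed by 0.28 ± 0.14 (0.288) and Ehmt2, the H3K9 methyltransferase G9a, by 0.22 ± 0.15 (0.434). Of 11 tested partners and paralogs of the 8 genes, 0 passed and 1 had an unadjusted p under 0.05 in limma (median 0.08). Slc25a4, the somatic paralog of Slc25a31, differed by 0.18 ± 0.08 (SE, n = 3; adjusted p in limma 0.238, 0.0393 with median centring and up to 0.575 in other alternatives), Ubr2, the partner of TEX19.1, by -0.39 ± 0.18 (0.266, with 0.0370 without knockout replicate 3 and up to 0.479 in other alternatives), and Dazap1, a DAZ-associated protein, by 0.25 ± 0.12 (0.279).

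**Figure D5:**
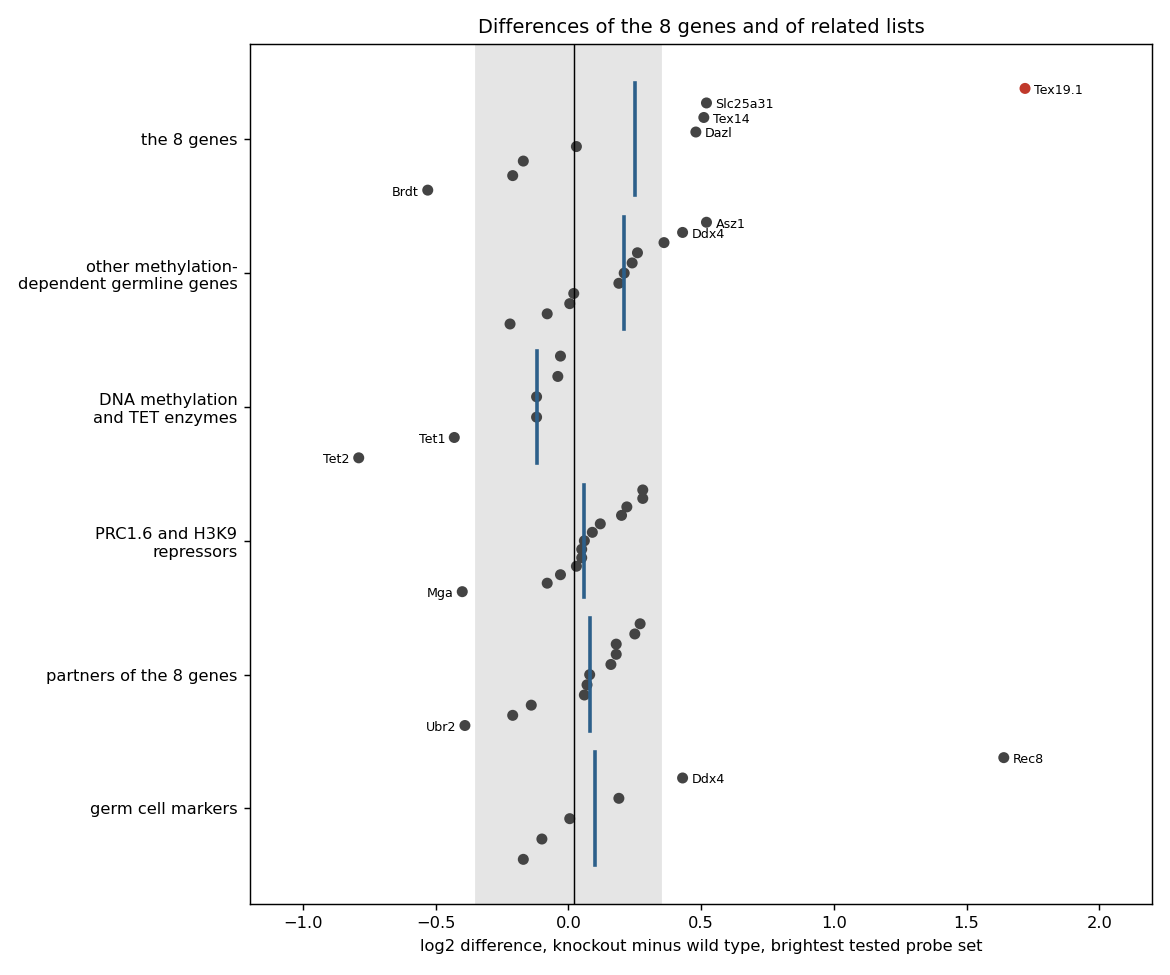
Log2 difference, knockout minus wild type (x axis), of every tested gene in 6 lists (rows), through its brightest tested probe set; blue bars are list medians, the black line the median of all tested genes (0.02), the grey band their 10th to 90th percentile, and red an adjusted p under 0.05. Tex19.1 at 1.72 is the 1 red point, and Rec8 at 1.64 (limma adjusted p = 0.0538, past the threshold in 7 of 16 alternatives) lies nearest to it.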

How the data were processed

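Biotin-labelled total RNA of ovaries was hybridised to Affymetrix arrays, per the labels' protocols. The deposited values are intensities on a linear scale, made by the authors with GCRMA, per the submitters' processing notes, with version and settings not given in the sources used here. In GCRMA values dim probe sets crowd near a floor and have no detection calls. Precision is limited by having 3 arrays a group. Array medians were 13.2 to 13.4 units in knockout and 14.4 to 14.7 in WT.

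Intensities were taken to log2, and 64 of 45101 probe sets, the controls, were left out. Groups came from the sample labels. The fit was limma 3.58.1 in R 4.3.3 (lmFit on genotype alone, eBayes with trend, 2-sided), Benjamini-Hochberg adjusted over 22040 tested probe sets. Errors of differences are moderated standard errors. A gene was counted through its brightest tested probe set, by mean over the 6 arrays. The fit was tested on simulated data of 22040 probe sets, with 50 changed at each size. It recovered 6 at a log2 change of 0.5, 31 at 1, 45 at 2 and 50 at 3, and called 3 unchanged ones. Recovery in the real data may differ.

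The 8 genes, the lists and the tests were chosen with earlier results of these data known. Genes named outside the 8 are, in each of 4 lists of related genes, up to 3 with the smallest p, the 5 nearest in profile to Dazl and to Tex19.1, and marker genes. Tex19.2 was in the list of partners. Rec8 among the markers, Cep55 and the further Dnmt3a, Tet2, Amhr2 and stroma probe sets were singled out after their values were seen. Of 107 genes in all lists, 9 had no probe set naming them alone. Alternatives covered filters, eBayes settings, array weights, a block for the replicate number, scaling, an added 16 units before log2, probe set choice, the threshold and leaving out each array. Before averaging, 0 pairs of replicate arrays held identical values.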

Additional observations from a re-analysis of the deposited data

How the results depend on the processing

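Tex19.1 remained the 1 gene of the 8 past the threshold with no filter, eBayes without the trend, robust eBayes, quantile normalization, a pseudocount of 16, probe sets ending _x_at or _s_at left out and averaged probe sets. The count was 0 with the stricter filter of log2 6, under which Tex19.1 and Brdt were not tested. It was 2, with Slc25a31, under array weights, under median centring and at an adjusted p of 0.10. Leaving out each array in turn gave 0 to 3, with 0 without WT replicate 1 or 3 and 3 (Tex19.1, Dazl and Slc25a31) without knockout replicate 3. Median centring moved the median difference of all tested genes from 0.02 to 0.16, and the Slc25a31 difference from 0.52 to 0.66.

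Over all tested probe sets 1455 passed, 321 up and 1134 down. The count was 3282 with no filter, 644 with the stricter filter, 2273 at 0.10, and 808 to 1541 without each array in turn. With median centring it was 1703, 874 up and 829 down. The list of other germline genes had 0 to 1 past the threshold without each array in turn, the PRC1.6 and H3K9 list 0 to 1, and the partners list 0 to 2 (Cep55 and Ubr2 without knockout replicate 3) and 1 with median centring. Differences near 0 changed sign. Tex101 ran from -0.42 to 0.08 without each array in turn, above 0 without knockout replicate 2. Taf7l was -0.04 with array weights and ran from -0.09 to 0.17 without each array in turn, below 0 without knockout replicate 2 (-0.09), knockout replicate 3 (-0.0049) or WT replicate 3 (-0.06). The cause of these changes was not tested.

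Same-numbered arrays of the groups did not deviate together (correlations of deviations -0.165, -0.247 and -0.168), and 0 of 6 arrays correlated best with their own number, so the numbers do not pair the samples. With the replicate number as a block, 1043 probe sets passed and 1 of the 8 genes, Tex19.1 (limma adjusted p = 0.0148). No count over all probe sets was made with averaged probe sets, where genes are the unit.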
